A study of Mus musculus with 150 samples.

Results

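Within lung tumour T1, cells differed in their chromosome 17 level, and they were divided by that level to see what else in their genomes differed. Of 150 single cells sequenced, 50 came from T1. A T1 cell entered if the noise of its profile, the scaled difference between neighbouring stretches of the genome, was at most 0.267, which left 47 cells. Each cell was centred so that the median of its autosomes was 0. The 26 cells whose chromosome 17 median was above 0 form the High set, and the 21 cells at or below 0 form the Low set. The members of each set were chosen by their measured chromosome 17 levels, so these levels are a description and carry no test.

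T1 and the tumours set beside it, T7 and T9, were microdissected from 1 mouse, labelled animal M3, 30 weeks after tumour induction. The mouse was of a mixed C57BL/6 and Sv129 background from a colony with Trp53flox/flox, Rosa26LSL-tdTomato and Rosa26LSL-Luciferase alleles. High cells, Low cells, T7 cells and T9 cells share that animal and its alleles. The labels give the inducing virus only for the study as a whole, as AdSPC-Cre, which drives Cre recombinase from the surfactant protein C promoter of alveolar type 2 cells, or AdCMV-FlpO, and not which one this animal had. No cell without tumour induction was analysed here. The labels call all samples alveolar type 2 cells of lung tissue, which DNA copy number cannot check because it measures no marker expression. All cells of T1 come from 1 tumour of 1 mouse and are not replicates of a condition. SDs and ranges therefore describe the spread between cells, and no p-value was computed.

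A cell that gains or loses a chromosome changes the dose of every gene on it, and tumours lacking p53 commonly tolerate such aneuploidy. Cells of 1 tumour can descend from different branches of 1 ancestor, and a copy number change carried by only some of the cells marks such a branch or an independent event. In single-cell DNA sequencing, the depth of each stretch is compared with the rest of the cell. The log2 ratio so obtained is a relative copy number, and a doubling of the whole genome leaves it unchanged. The level of a chromosome is the median log2 ratio of its bins, which had a median length of 499.6 kb. A chromosome was called gained at or above 0.32, the log2 of 2.5 over 2 copies, and lost at or below -0.42, the log2 of 1.5 over 2 copies.

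Chromosome 17 differed by about 0.31 between the sets, with no T1 cell between -0.0357 and 0.0605. In the 26 High cells its level was lowest at 0.06, had a median of 0.18 (SD 0.06, n = 26) and was highest at 0.31. In the 21 Low cells it was lowest at -0.27, had a median of -0.13 (SD 0.06, n = 21) and was highest at -0.04. The difference of medians corresponds to a 1.24-fold higher relative copy number in High cells. The 3 cells nearest to 0 in High were 180046 at 0.06, 180014 at 0.10 and 180044 at 0.11. The 3 nearest in Low were 180021 at -0.04, 180016 at -0.04 and 180042 at -0.05. Between 180046 and 180021 lay a gap of 0.0962, the widest between any neighbours in the order of T1 levels. The place of the cut depends on the centring. Centring on the mode moved 2 High cells to Low, and the deposited values uncentred moved 4.

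The share of bases comes from the same reads as the level and is given as a description. Chromosome 17 took 4.31 to 5.01% of the autosomal bases of High cells (median 4.64%) and 3.38 to 3.96% of those of Low cells (median 3.68%). The ranges did not overlap, and the ratio of the medians was 1.26. T7 and T9 cells were placed by the same rule for comparison. The rule gave 12 High and 36 Low cells in T7, with levels from -0.11 to 0.19, and 31 High and 19 Low cells in T9, with levels from -0.33 to 0.26. In those tumours the levels ran through 0 with gaps there of 0.00157 in T7 and 0.0154 in T9. Within 0.05 of 0 lay 2 T1 cells, 32 T7 cells and 13 T9 cells. No cell under the noise limit in any tumour reached the threshold for a gain or a loss of chromosome 17.

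**Figure D1:**
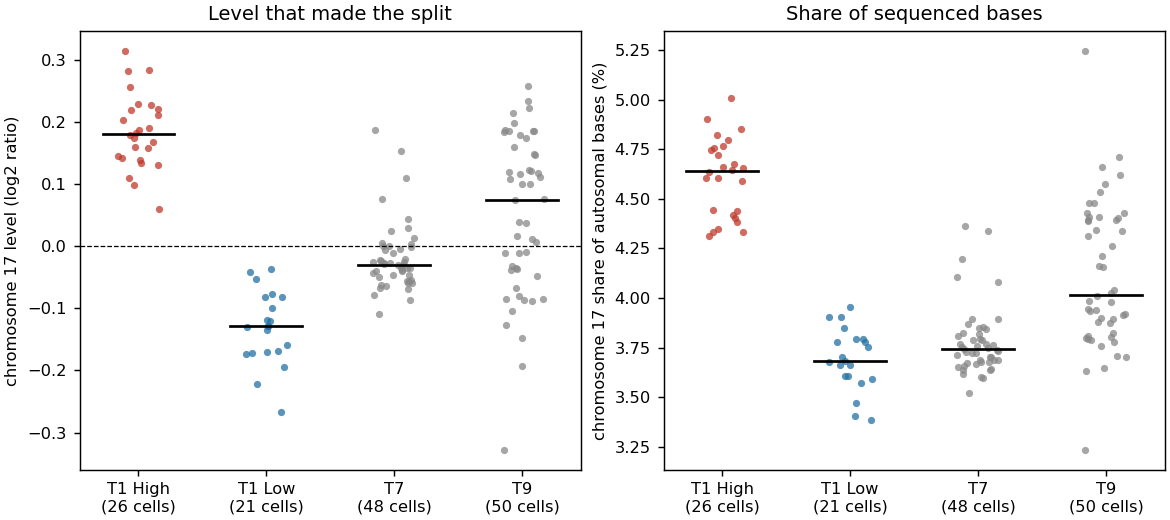
Chromosome 17 level (log2 ratio, left) and its share of autosomal bases (percent, right) in each T1 High, T1 Low, T7 and T9 cell, with 1 point per cell and a black line at the median. T1 High cells lie at 0.06 or above and T1 Low cells at -0.04 or below on the left, with shares of at least 4.31% and at most 3.96% on the right, while T7 and T9 cells run through 0.

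The shift covered the whole of chromosome 17. In 9 consecutive windows of 20 bins, the High minus Low difference of medians lay between 0.26 and 0.38, and it was positive in all 9. Of the 183 bins of the chromosome, 181 (98.9%) had a set median at least 0.15 higher in High, a share that the rule itself fixes. Along the chromosome, the level varied alike in both sets. High ran from 0.04 in the window at 33210623 to 43239345 up to 0.28 in the window at 3000001 to 13255953. Low ran from -0.27 in the same window at 33210623 up to -0.02 in the window at 43239346 to 53268069.

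Parts of the chromosome placed most T1 cells alike. The rule used all of these bins, so the counts by set given here are in part built in and carry no test. Levels from odd-numbered and even-numbered bins had a Pearson correlation of 0.97 over the 47 cells, which share library and depth between both measures, and they fell on opposite sides of 0 in 1 cell, the Low cell 180016. The first and the last part of the chromosome correlated at 0.93 over the same 47 cells. Both parts were above 0 in all 26 High cells, and both were at or below 0 in 19 of the 21 Low cells. In T7, both parts were above 0 in 7 of 12 High cells and at or below 0 in 34 of 36 Low cells. In T9, both parts were above 0 in 19 of 31 High cells and at or below 0 in 1 of 19 Low cells.

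The dose difference applied to 34 listed genes of the chromosome, a list of cancer, signalling and immune genes. The level of a gene is the median of 5 bins around it, so genes that lie close together share a value. All 34 had a higher median in High than in Low, by 0.26 to 0.41 (median 0.33), as their place on the chromosome that made the split requires. For each of the 34, the single-cell ranges of the sets overlapped. Birc6, which encodes an inhibitor of apoptosis, had the widest difference, with a median of 0.20 (SD 0.14, n = 26) in High and -0.21 (SD 0.15, n = 21) in Low. Runx2, a transcription factor gene of bone development, had the narrowest, with 0.25 in High and -0.01 in Low.

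Regulators of growth and the cell cycle on chromosome 17 showed the same offset. Cdkn1a, the gene of the cell cycle inhibitor p21 and a target of p53, had a median of 0.04 in High and -0.30 in Low. Tsc2, whose product restrains mTORC1 signalling, had 0.05 in High and -0.25 in Low. Vegfa, the gene of the main angiogenic growth factor, had 0.18 in High and -0.17 in Low. Abca3, a lipid transporter gene of surfactant-making alveolar type 2 cells, shares the window of Tsc2 and its values.

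Genes of antigen presentation and epithelial adhesion lie there too. H2-K1, a class I histocompatibility gene, and Tap1 and Tapbp, which serve peptide loading, share a window with a median of 0.06 in High and -0.30 in Low. H2-D1, another class I gene, had -0.01 in High and -0.33 in Low. Epcam, an epithelial adhesion gene, had 0.16 in High and -0.12 in Low. Alk, a receptor tyrosine kinase gene, had 0.21 in High and -0.16 in Low, and Eml4, its known fusion partner in human lung cancer, had 0.21 in High and -0.14 in Low. These are levels of DNA, and RNA was not used here.

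The 2 set medians of chromosome 17 can be set beside the medians of the other autosomes over all 47 T1 cells. Chromosomes 2, 3, 5, 8, 12, 14 and 18 had medians of 0.16 to 0.22 (median 0.18 over the 7). Chromosomes 7, 10, 11, 15 and 16 had medians of -0.19 to -0.16 (median -0.18 over the 5). These groups were formed after the values were seen, as the autosomes with a median within 0.06 of 0.18 or of -0.18. Their medians are held near those values by this choice, so a match with chromosome 17 carries no test. The High median of chromosome 17, 0.18, equals the first group's to 2 decimals, while the Low median, -0.13, lies slightly above the second group's range. A change of 1 copy would move the log2 ratio by 0.32 between 4 and 5 copies, 0.42 between 3 and 4, 0.58 between 2 and 3, and 1 between 1 and 2. The number of copies behind a level was not measured.

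Outside chromosome 17, most of the genome was shared by the sets. The other 18 autosomes and X overlapped between High and Low in every case. The difference of medians was under 0.05 for 15 of these 19 chromosomes. It reached 0.15 for 1 of 19 (5.26%), chromosome 13. It was negative for 15 and positive for 4. The centring puts a cell with a higher chromosome 17 slightly lower elsewhere by construction, and the median difference over the bins outside chromosome 17 was -0.02. Over the 18 autosomes, the difference had a Pearson correlation of -0.30 and a Spearman correlation of -0.46 with the number of genes per bin, given as a description.

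The most frequent calls in T1 were present in both sets. Chromosome 4 had a median of -0.69 in High (SD 0.10) and -0.69 in Low (SD 0.10), and it was called lost in 25 of 26 High and 20 of 21 Low cells. Chromosome 9 had -0.58 in High and -0.55 in Low and was called lost in 24 of 26 and 20 of 21 cells. Chromosome 6 had 0.39 in High and 0.42 in Low and was called gained in 21 of 26 and 16 of 21 cells. Chromosome 10 had -0.21 in High and -0.18 in Low and was called lost in 7 of 26 High cells (26.9%) and 6 of 21 Low cells (28.6%). Some of these calls also occurred in the other tumours, with chromosome 9 lost in 21 of 31 High and 18 of 19 Low cells of T9 and chromosome 6 gained in 6 of 12 High and 31 of 36 Low cells of T7. Over all pairs of a cell and a chromosome other than 17, High had 34 of 494 called gained (6.88%) and 67 called lost (13.6%). Low had 23 of 399 called gained (5.76%) and 57 called lost (14.3%).

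**Figure D2:**
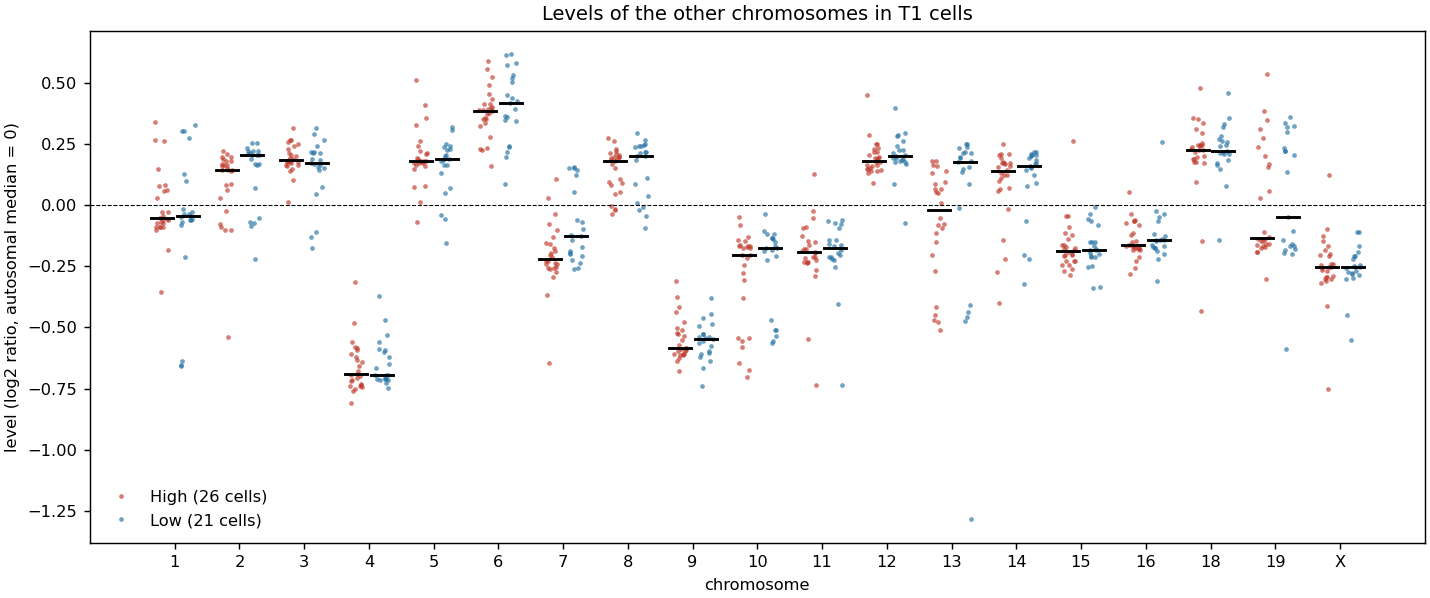
Level (log2 ratio) of each autosome other than 17 and of X in T1 cells, High left of Low, with 1 point per cell and a black line at the set median. The sets overlap on every chromosome, and the medians lie furthest apart on chromosome 13, at -0.02 in High and 0.17 in Low.

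Chromosome 13 differed most. In High its level was lowest at -0.51, had a median of -0.02 (SD 0.23, n = 26) and was highest at 0.18. In Low it was lowest at -1.28, had a median of 0.17 (SD 0.39, n = 21) and was highest at 0.25. The difference of medians was -0.20, and the High range lay within the Low range. The difference of means was smaller, at -0.07, and the lowest cell of all, 180018, belongs to Low. The level was above 0 in 13 of 26 High cells (50%) and 15 of 21 Low cells (71.4%). The difference of medians kept its sign under each alternative tried but fell below 0.15 in size with centring on the mode (-0.14), with the deposited values uncentred (-0.12), with the weighted mean (-0.149), with the stricter noise limit (-0.10) and without the cells that lost chromosome 10 (-0.14).

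The difference grew along chromosome 13. The start of the chromosome, 3000001 to 32179805, had a median of 0.14 (SD 0.10) in High and 0.17 (SD 0.07) in Low. The middle, 32179806 to 69413608, had -0.03 (SD 0.31) in High and 0.21 (SD 0.44) in Low. The last part, 69413609 to 120321639, had -0.13 (SD 0.25) in High and 0.17 (SD 0.42) in Low, a difference of -0.30. For that last part the difference lay between -0.36 and -0.22 in the 13 alternatives that recomputed it, with the same bounds. T7 and T9 had medians of -0.02 and -0.01 there. The bounds of these parts were set after values were seen, as single steps fitted to the High minus Low difference along the chromosome. The start of the middle was fitted over all cells, and that of the last part over cells without loss of chromosome 10. The size of the difference in the last part is therefore in part built in. Of 12 windows on chromosome 13, all 12 had a lower median in High, by 0.01 in the first to 0.33 in the window at 103509784 to 113500859.

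**Figure D3:**
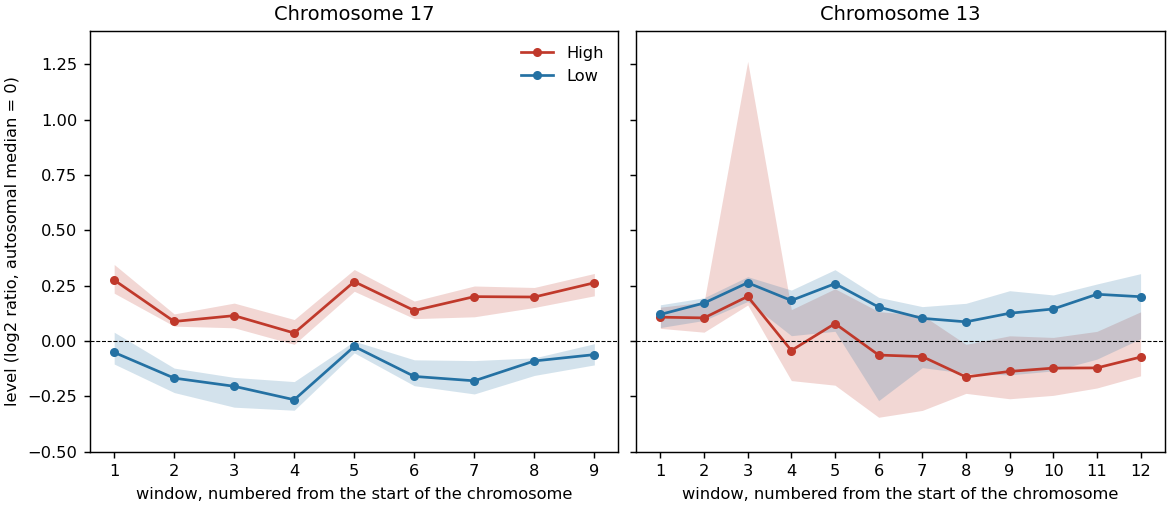
Median level (log2 ratio) in consecutive windows of 20 bins along chromosomes 17 (left) and 13 (right) for High and Low T1 cells, with the band between the quartiles over cells. On chromosome 17 the lines stay 0.26 to 0.38 apart, and on chromosome 13 they lie within 0.07 in the first 3 windows and up to 0.33 apart later, while the High band in the third window reaches 1.26.

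Sorted by the level of the last part of chromosome 13, cells stood in 3 ranges. It was above 0 in 8 of 26 High cells (30.8%, 95% interval 14.3 to 51.8) and 15 of 21 Low cells (71.4%, 47.8 to 88.7). It lay between the loss threshold and 0 in 13 of 26 High cells (50%, 29.9 to 70.1), at -0.29 to -0.08, and in 1 of 21 Low cells (4.76%, 0.120 to 23.8), at -0.08. It was called lost in 5 of 26 High cells (19.2%, 6.55 to 39.4) and 5 of 21 Low cells (23.8%, 8.22 to 47.2). Intervals here and elsewhere are exact Clopper-Pearson intervals and cover counting error only. The sets thus had similar counts of called losses of the last part and differed in the range just below 0. These ranges were chosen after values were seen, and the 13 and 1 cells carry no test.

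The 5 High and 5 Low cells with the last part of chromosome 13 called lost had all lost chromosome 10 as well. In the 7 High and 6 Low cells with that loss, chromosome 13 had medians of -0.45 in High and -0.45 in Low, and its last part was called lost in 5 and 5 of them. In the 19 High and 15 Low cells without it, the last part was called lost in 0 of 19 and 0 of 15. Among these cells it had a median of -0.11 in High and 0.20 in Low, a difference of -0.31, and was above 0 in 7 of 19 High and 14 of 15 Low cells. The middle of the chromosome then had 0.15 (SD 0.20) in High and 0.22 (SD 0.09) in Low. Its difference of -0.24 over all cells was -0.07 without the cells that lost chromosome 10. It was above 0 in 12 of 19 High and 14 of 15 Low cells without the loss. In the cells with the loss, the middle had -0.58 in High and -0.55 in Low, a difference of -0.03. The end of the middle was fitted to the difference in the cells without the loss. The small size of the difference there is therefore in part built in. Chromosome 17 differed by 0.31 in the cells without the loss, at 0.17 in High and -0.13 in Low, and by 0.34 in the cells with it, at 0.26 in High and -0.08 in Low.

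**Figure D4:**
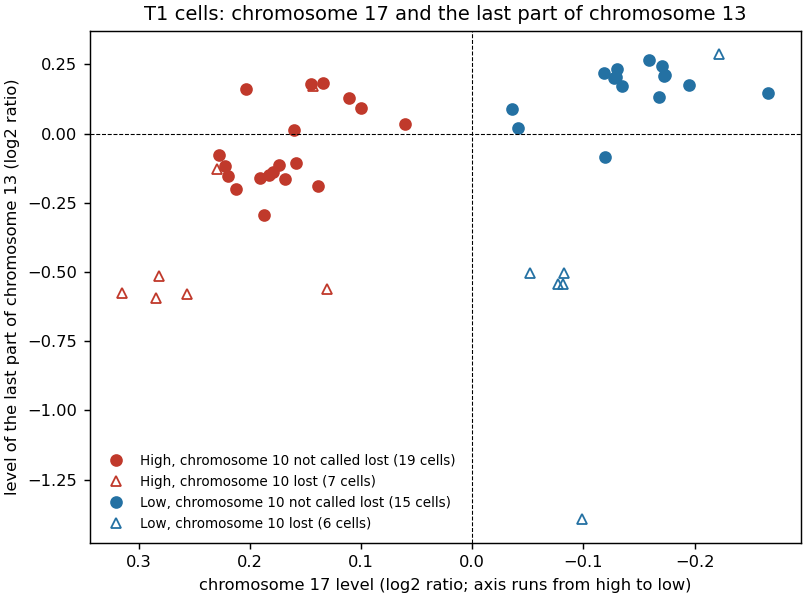
Level of the last part of chromosome 13 (log2 ratio) against the level of chromosome 17 (log2 ratio, the axis running from high to low) in the 47 T1 cells, with filled circles for cells without and open triangles for cells with a called loss of chromosome 10. Among the filled circles, 12 of 19 High cells and 1 of 15 Low cells lie below 0, and the 5 High and 5 Low cells under -0.5 are all open triangles.

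In some cells the level dropped inside chromosome 13. A drop of at least 0.2 between the middle and the last part was found in 6 of 26 High cells (23.1%, 8.97 to 43.6) and 1 of 21 Low cells (4.76%, 0.120 to 23.8). The High cells were 180011, 180012, 180023, 180025, 180029 and 180049, and the Low cell was 180040. In these High cells the middle lay at 0.16 to 0.24 and the last part at -0.19 to 0.01. In 180040 the middle lay at 0.30 and the last part at -0.08. The best single break fell at 73930437 in 3 of the High cells, between 60.4 and 73.9 Mb in all 6, and at 73428567, the neighbouring bin start, in 180040. The largest drop in the other cells was 0.05 in High and 0.10 in Low. The threshold of 0.2 was chosen after values were seen. The border between the middle and the last part was fitted to the High minus Low difference in cells without loss of chromosome 10. Of the cells with a drop, 0 in High and 0 in Low had lost chromosome 10. The counts of drops by set are therefore in part built in and carry no test.

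Chromosome 7 ranked after chromosome 13 in the size of the difference. It was lowest at -0.65, had a median of -0.22 (SD 0.14) and was highest at 0.11 in High, against a lowest value of -0.26, a median of -0.13 (SD 0.15) and a highest of 0.16 in Low. The difference of -0.10 was smaller than the spread between cells of either set. In the cells without loss of chromosome 10 it was -0.05, with medians of -0.24 in High and -0.19 in Low. In the cells with that loss it was -0.07. The level was above 0 in 2 of 26 High and 6 of 21 Low cells. All 14 windows of chromosome 7 had a lower median in High, by 0.02 to 0.11. Its start, 3000001 to 19123448, lay lower than the rest in both sets, at -0.48 in High and -0.40 in Low, and was called lost in 15 of 26 High cells (57.7%, 36.9 to 76.6) and 9 of 21 Low cells (42.9%, 21.8 to 66.0). The High minus Low difference of this start was -0.08, and it turned to 0.06 under the stricter noise limit, which left 15 High and 10 Low cells.

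Leaving aside chromosomes 4, 6, 9 and 10, described above, chromosomes 19, 2 and 14 followed, with differences below the spread between cells. Chromosome 19 had a median of -0.13 (SD 0.23) in High and -0.05 (SD 0.26) in Low. In the cells without loss of chromosome 10 its difference was 0.01, with medians of -0.15 in High and -0.16 in Low. In the cells with that loss it had 0.27 in High and 0.32 in Low. Chromosome 2 had 0.14 (SD 0.16) in High and 0.20 (SD 0.14) in Low. Chromosome 14 had 0.14 in High and 0.16 in Low.

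A few calls occurred in cells of a single set. Chromosome 1 was called lost in 0 of 26 High cells, with a limit of 11.5% from 3 counts and an exact upper bound of 13.2%, against 3 of 21 Low cells (14.3%, 3.05 to 36.3). The 3 cells, 180009, 180034 and 180036, had chromosome 1 at -0.66, -0.66 and -0.64, while the set medians were -0.05 in High and -0.05 in Low. Chromosome 5 was called gained in 4 of 26 High cells (15.4%, 4.36 to 34.9) and 0 of 21 Low cells, with a limit of 14.3% from 3 counts and an exact upper bound of 16.1%. The highest Low level of chromosome 5 was 0.318, just under the gain threshold of 0.322. Its set medians were 0.18 in High and 0.19 in Low. Of the 4 High cells called gained, 3 had also lost chromosome 10. Chromosomes 1 and 5 were singled out after their values were seen, and the intervals of High and Low overlap for both.

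Strong local gains were found in both sets. A window on chromosome 13 at 25146896 to 31175104 stood at 1 or more on the log2 scale in 8 of 26 High cells (30.8%, 14.3 to 51.8) and 4 of 21 Low cells (19.05%, 5.45 to 41.9). Its highest level was 4.16 in High and 4.43 in Low, and its median was 0.22 in High and 0.26 in Low. A window on chromosome 8 at 7447887 to 15355241 reached at least 1 in 5 of 26 High cells (19.2%) and 5 of 21 Low cells (23.8%). The end of chromosome 18, 77932880 to 90602639, passed the gain threshold in 6 of 26 High cells (23.1%, 8.97 to 43.6) and 9 of 21 Low cells (42.9%, 21.8 to 66.0), at medians of 0.26 and 0.29. The intervals of the sets overlap for each of these regions.

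Counted by bin, differences outside chromosome 17 were few, and chromosome 13 held more of them than any other chromosome. Of 4966 bins, 293 (5.9%) had a set median at least 0.15 lower in High, and 48 (0.967%) had one at least 0.15 higher, together 6.87%. Of the 293, 123 lay on chromosome 13, which has 233 bins, and 50 on chromosome 7, which has 283. Without chromosome 13 the share of lower bins was 3.59%. In cells without loss of chromosome 10, 313 bins (6.3%) were lower and 137 (2.76%) higher in High. Of the 101 bins in the last part of chromosome 13, whose start was fitted to the difference in these cells, 91 were among the lower. The same rule applied to T7 gave 837 lower (16.9%) and 261 higher (5.26%) bins, with 328 of the 359 bins of chromosome 2 among the lower, and in T9 it gave 113 (2.28%) and 56 (1.13%). The T7 counts rest on 12 High cells.

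Of 55 listed genes outside chromosome 17, 3 were at least 0.15 lower in High (5.45%), and 0 were at least 0.15 higher. Of all bins outside chromosome 17, 5.9% were lower by that size. That share counts single bins, while the level of a gene is the median of 5 bins, so the measures are unlike. The median difference of the 55 was -0.02. Itga2, an integrin gene for collagen binding on chromosome 13, had a median of 0.05 (SD 0.31) in High and 0.22 (SD 0.47) in Low. Ret, a receptor tyrosine kinase gene on chromosome 6, had 0.31 (SD 0.18) in High and 0.48 (SD 0.21) in Low. Napsa, the gene of a protease used as a marker of lung adenocarcinoma, on chromosome 7, had -0.20 (SD 0.20) in High and -0.04 (SD 0.17) in Low. All 3 differences lay within 1 SD of the cells of either set.

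By list, 1 of 18 oncogenes (Ret), 0 of 17 tumour suppressors, 1 of 8 genes of alveolar type 2 identity (Napsa) and 1 of 12 genes of plasticity and mesenchymal state (Itga2) passed 0.15. The list medians lay between -0.04 and -0.001, beside -0.02 over all bins outside chromosome 17. The next in size also stood lower in High. Tert, the telomerase reverse transcriptase gene on chromosome 13, had -0.08 in High and 0.06 in Low. Arid1a, a chromatin remodeller gene on chromosome 4, had -0.91 in High and -0.78 in Low. Snai1 and Zeb2, transcription factor genes of epithelial to mesenchymal transition on chromosome 2, had 0.03 and 0.35 in High and 0.16 and 0.47 in Low. Rb1, the retinoblastoma tumour suppressor gene on chromosome 14, had 0.04 in High and 0.14 in Low. Cdk4, a cell cycle kinase gene on chromosome 10, had -0.38 in High and -0.30 in Low.

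Whole profiles outside chromosome 17 gave no clear separation of the sets. Over the 18 other autosomes, the best correlated T1 cell belonged to the same set for 31 of 47 cells (66.0%), 17 of 26 in High and 14 of 21 in Low, where 49.5% of all pairs of T1 cells belong to the same set. The median correlation between 2 cells was 0.83 within High, 0.75 within Low and 0.78 between the sets. By this median, Low cells were no more alike than a Low and a High cell. These are descriptions over 18 chromosome levels, which share the cell's centring.

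Depth and noise differed little between the sets beside their ranges. Sequenced bases ran from 20.5 to 170.1 Mb in High (median 95.0 Mb) and from 31.5 to 141.1 Mb in Low (median 99.1 Mb). Noise had a median of 0.189 in High and 0.199 in Low. The slope of the log2 ratio on the number of genes in a bin had a median of -0.0081 per gene in High and -0.0084 in Low. Removing that slope in each cell left all 47 cells in their sets and chromosome 17 at a difference of 0.31. No 2 cells of T1 had identical values.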

How the data were processed

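Genomic DNA of single cells was sequenced, with 1 column per cell in each table. The submitters' processing notes name BWA 0.7.17 and the build GRCm38. Per the file headers, 5331 bins carry a deposited coverage signal (mean reads per base), a deposited log2 ratio and a deposited weight, a score that is the same in all cells. The tool and reference behind the ratio and weight are not stated in the sources used here, nor are sorting, amplification and the treatment of wells with more than 1 cell. Coordinates are those of the files.

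Bins on autosomes and X with depth and a ratio in at least 80% of cells were kept (5149, of which 4806 on autosomes). The noise limit of 0.267 was the median plus 3 scaled median absolute deviations over all cells, and it left out 3 T1 cells, 2 T7 cells and 0 T9 cells. Levels, differences of at least 0.15 between set medians and the called shares were computed as the report states. The tools were Python 3.11.15, numpy 2.4.6, pandas 2.3.3, scipy 1.17.1 and matplotlib 3.10.9. Recovery of chromosome differences was tested with shifts planted on real T1 cells, after removing each chromosome's median and drawing sets at random. The called gains and losses were not part of that test. Genes were placed by RefSeq (GRCm38.p6), where all 90 listed genes matched. Named chromosomes are 4, 6, 9 and 10 and the 5 others with the largest difference; named genes outside chromosome 17 are the 10 of the lists with the largest difference. The sets, lists and regions were chosen with earlier results of these data known. Alternatives covered centring, noise, bins, the ratio, thresholds and the bins that make the split. Some loci and listed genes are not reported here.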

Additional observations from a re-analysis of the deposited data

Results flagged for a closer look

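Chromosome Y was not part of the comparisons. It took a median of 0.179% of the sequenced bases in High cells (0.154 to 0.556%) and 0.178% in Low cells (0.156 to 0.472%), where no cell without tumour induction gives a level to set them against. The medians were 0.524% in High and 0.398% in Low of T7, and 0.498% in High and 0.464% in Low of T9. What lies behind the lower share in T1 was not tested.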

How the results depend on the processing

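Over 17 alternatives, 334 of 363 recomputed values stayed within 1 SD of the cells or within 1.5 times the main count. Another 29 moved further, and 0 changed the sign of a difference of at least 0.15. The splits by odd bins and by the first part of chromosome 17 gave the same 26 and 21 cells. Their values equal the main ones by construction and count among the 334. The limit of 1 SD is also wide, and smaller differences changed sign within it. For example, the start of chromosome 7 went from -0.08 to 0.06, and chromosome 19 from -0.09 to 0.01. The chromosome 17 difference ran from 0.26 to 0.34, that of chromosome 13 from -0.21 to -0.10 and that of its last part from -0.36 to -0.22. The sets were 24 High and 23 Low cells with centring on the mode, 22 and 25 with the deposited values uncentred, 28 and 19 when split by the last part of chromosome 17, and 15 and 10 under the stricter noise limit, whose members all kept their set. The share of bins higher in High was 1.71% with centring without chromosome 17, 2.25% with the mode, 1.81% uncentred, 1.51% with the stricter noise limit, 1.63% with the ratio taken from depth, 5.03% and 0.201% at sizes of 0.1 and 0.2, and 2.76% without cells that lost chromosome 10, an alternative chosen after seeing the data. The share lower in High was 14.8% at a size of 0.1 and 2.36% at 0.2. Pairs called gained were 3.07% in High and 3.43% in Low with the mode, 11.2% in Low uncentred, 3.04% and 3.76% with the ratio from depth, 1.62% and 2.00% under stricter thresholds (0.45 and -0.7) and 10.5% and 12.5% under looser ones (0.25 and -0.3). Pairs called lost were 7.09% in High and 6.52% in Low with the ratio from depth and 2.83% and 2.76% under the stricter thresholds. The 1 Low cell with the last part of chromosome 13 between the loss threshold and 0 became 13.04% of Low cells with the mode, 9.52% without bins of low weight and with the gene density line removed, and 0% under the stricter noise limit, where 10 cells are left, while the share in High ran from 46.4 to 63.6%. Causes of these moves were not tested, other than that fewer cells or another size or threshold change a count by construction. A correction for GC content was not run, as no genome was used. No paired analysis was possible because each sample is 1 cell and the sets share no numbers. Depth limits single genes, read from 5 bins, more than chromosomes.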
